A study of Mus musculus with 5 samples.

Results

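The genes followed through whole mouse lungs here belong to the epidermal growth factor (EGF) receptor system: the 6 ligands Areg, Ereg, Hbegf, Tgfa, Btc and Epgn, the 3 receptors Egfr, Erbb2 and Erbb3, and the protease Adam17. They were taken by gene symbol, from a list drawn up with earlier results of these data known. All 10 were found in each of the 4 deposited comparison tables, which list 21590 genes. RNA sequencing had been done on lungs of mice on a mixed 129S6, C57BL/6 and BALB/c background. WT_noVILI and KO_noVILI are lungs taken without ventilation, from wild type animals and from knockouts of Cldn4, the gene of the tight junction protein claudin-4. WT_VILI, KO_VILIlow and KO_VILIhigh are lungs ventilated for 2 h at 40 cmH2O, which injures them by overstretching (ventilator-induced lung injury, VILI). KO_VILIlow and KO_VILIhigh are both Cldn4 knockouts, and their labels tell them apart by outcome, as injured about as much as wild type or injured more. The labels name whole lung, and give neither age nor sex.

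Ligands of the EGF family are made as membrane-anchored precursors, and metalloproteases, Adam17 above all, cut them free to act on the same or neighbouring cells. Areg, Tgfa, Epgn, Ereg, Btc and Hbegf all bind the EGF receptor, encoded by Egfr, and Ereg, Btc and Hbegf can also engage ErbB4. Erbb2 encodes a receptor with no known ligand that pairs with the others, and Erbb3 a receptor with a weak kinase that binds neuregulins. In the lung this system acts in epithelial repair and in the response of epithelium to stretch.

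The design text gives 2 libraries per group, but the tables hold the authors' fold changes, mean abundances and test results, with 0 columns of values per library. Levels given below are therefore group levels in CPM (the reads of a gene relative to all reads counted in a library, scaled to a fixed total), recovered for each group out of the fold change and the mean in a table, and have no error of their own. WT_VILI can be rebuilt from 3 tables and WT_noVILI from 2, and for the 7 members at 10 CPM or more these versions lay within 6.16% of each other. The lowest mean a table lists lies between 0.238 and 0.387 CPM, so levels under 1 CPM are near the floor of the estimates. Nothing in the labels says whether the 2 libraries of a group came from separate animals, so the p-values may measure technical spread only. Cldn4 stood at 8.98 CPM in WT_noVILI, at 139.7 CPM in WT_VILI, and at 0.14, 0.0212 and 0.122 CPM in KO_noVILI, KO_VILIlow and KO_VILIhigh. Xist, expressed from the inactive X chromosome, was at 889.6 and 504.7 CPM in WT_noVILI and KO_noVILI, and between 2.56 and 6.13 CPM in every ventilated group. Sex and ventilation cannot be told apart in any comparison of ventilated with unventilated lungs. Lung markers were abundant in every group: alveolar type 2 genes summed to between 8004 and 9920 CPM over 6 of 6 genes, and alveolar type 1 genes to between 4282 and 4956 CPM over 6 of 6.

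**Figure D1:**
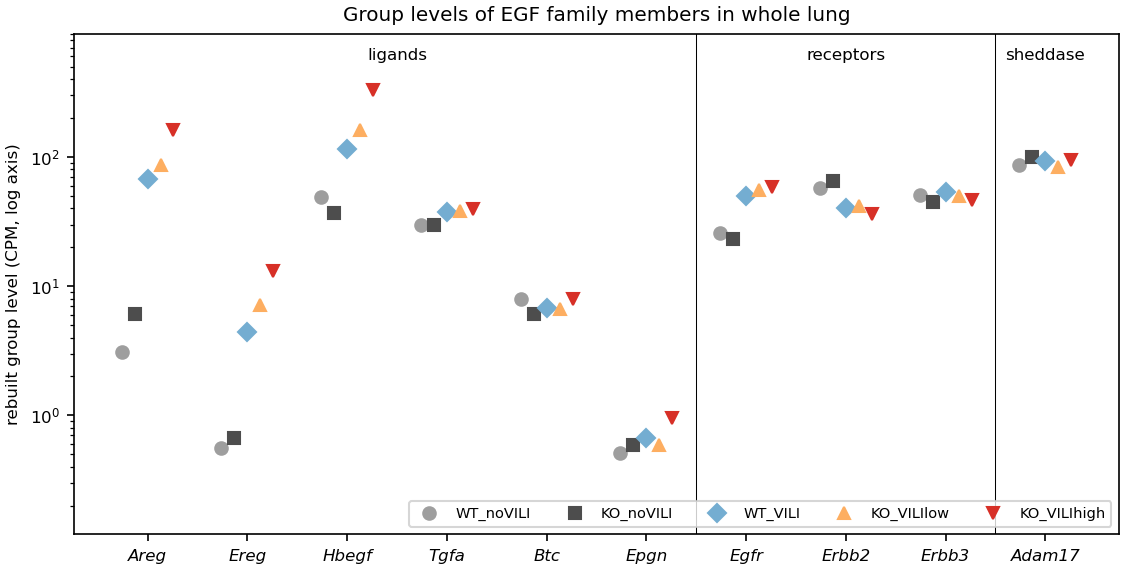
Rebuilt group levels in CPM on a log axis for the 10 members, with 1 point per group and no error. Areg, Ereg and Hbegf rise from the unventilated to the ventilated groups and are highest in KO_VILIhigh (162, 13.2 and 328 CPM), while Adam17 stays between 84.1 and 99.1 CPM.

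After ventilation, wild type lungs held more RNA of 3 ligands and of Egfr, and less of Erbb2. Areg, encoding amphiregulin, rose 21.8-fold, Hbegf, encoding heparin-binding EGF-like growth factor, 2.36-fold, and Egfr 1.92-fold, while Erbb2 was 1.43-fold lower. By the authors' deposited edgeR table, 4 of the 10 members were higher and 1 was lower at an adjusted p below 0.05. Of all 21590 genes, 9.09% passed in either direction, 4.85% as higher and 4.23% as lower, and 13.7% passed among the 13801 genes whose mean log2 CPM reached 1. The median log2 fold change was 0.37 over the 10 members and -0.02 over those 13801 genes.

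Areg stood at 3.10 CPM in WT_noVILI and at 67.5 CPM in WT_VILI. In the knockouts it stood at 6.08 CPM without ventilation, at 86.8 CPM with low injury and at 162 CPM with high injury. Every ventilated level lay above both unventilated levels. These are group levels without error, and how many of all genes show this order was not counted. The deposited log2 fold change in wild type was 4.44, with an approximate standard error (SE, from the deposited p) of 0.23 and an edgeR adjusted p of 1.48e-80. Ereg, encoding epiregulin, stood at 0.556 CPM in WT_noVILI and at 4.38 CPM in WT_VILI. The unventilated level is close to the floor, so its log2 fold change of 2.98 (SE 0.57, edgeR adjusted p = 9.62e-06) is a fitted value and no bound. Hbegf went from 49.1 CPM in WT_noVILI to 115.7 CPM in WT_VILI, a log2 fold change of 1.24 (SE 0.17, edgeR adjusted p = 1.52e-10).

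The other 3 ligands did not pass the test after ventilation. Tgfa, encoding transforming growth factor alpha, read 29.5 CPM in WT_noVILI against 37.7 CPM in WT_VILI, a log2 difference of 0.35 with an approximate 95% interval of 0.02 to 0.69 and an edgeR adjusted p of 0.241. Btc, encoding betacellulin, stood at 7.94 and 6.71 CPM, a difference of -0.24 with an interval of -0.86 to 0.37. Epgn, encoding epigen, was rebuilt at 0.509 to 0.956 CPM in the 5 groups. These values are too near the floor for a change to be detectable, and the same log2 fold of 0.69 is listed for Epgn in 2 tables (edgeR adjusted p = 1 in both).

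Receptor transcripts moved in different directions. Egfr went from 25.8 CPM in WT_noVILI to 49.7 CPM in WT_VILI, a log2 fold change of 0.94 (SE 0.16, edgeR adjusted p = 2.49e-07). Erbb2 read 57.8 CPM in WT_noVILI but 40.3 CPM in WT_VILI, a fall by 0.52 on the log2 scale (SE 0.15, edgeR adjusted p = 0.00744). Erbb3 stood at 50.7 and 53.4 CPM, a difference of 0.08 with an interval of -0.27 to 0.42. For Adam17, the protease that releases several of these ligands, the levels were 86.3 and 93.5 CPM, a difference of 0.11 with an interval of -0.21 to 0.44. The interval for Adam17 reaches up to 0.44 on the log2 scale. It comes from a p-value that may measure technical spread only, so it sets no bound on a change between animals.

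**Figure D2:**
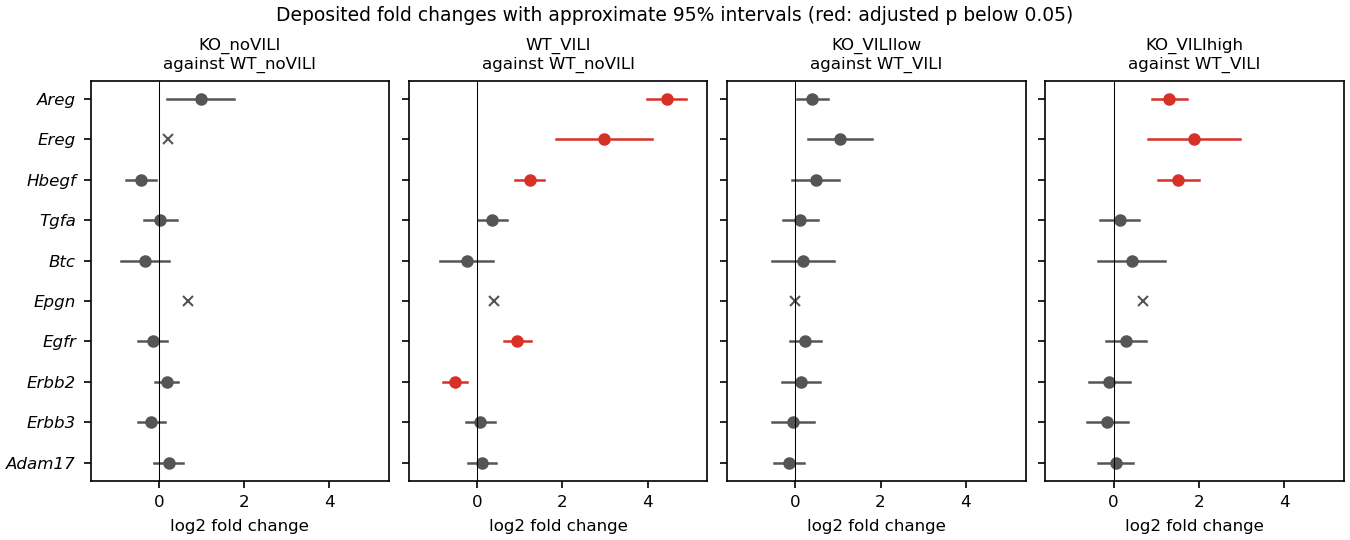
Deposited log2 fold changes of the 10 members in the 4 tables, 1 panel each, with approximate 95% intervals computed from the deposited p; crosses mark values for which no useful interval could be had, and red marks an adjusted p below 0.05. Red points are 5 members in WT_VILI against WT_noVILI and 3 in KO_VILIhigh against WT_VILI, with none in the other panels.

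Markers of cells that could carry these transcripts moved in the same comparison, in both directions. Their counts are to be read beside the 9.09% of all genes, and 13.7% of those whose mean log2 CPM reached 1, that passed. Of 6 neutrophil genes 6 were higher in WT_VILI, and their summed level went from 110.7 CPM in WT_noVILI to 448.0 CPM, with 114.6, 605.6 and 823.8 CPM in KO_noVILI, KO_VILIlow and KO_VILIhigh. Of 5 general epithelial genes 3 were higher and none lower, with sums of 961.9 CPM in WT_noVILI and 1666 CPM in WT_VILI, and of 856.7, 1841 and 2585 CPM in KO_noVILI, KO_VILIlow and KO_VILIhigh. The 3 were the keratin genes Krt8, Krt18 and Krt19, while Epcam (0.25) and Cdh1 (0.28) did not pass (edgeR adjusted p = 0.396 and 0.229). From WT_noVILI to WT_VILI, alveolar type 1 sums went from 4956 to 4282 CPM and club and ciliated sums from 3481 to 2758 CPM. Alveolar type 2 sums went from 8004 to 9821 CPM. Of the single genes in these lists, Pdpn (0.65) and Sftpd (0.47) passed as higher. Rtkn2 (-0.99), Foxj1 (-1.68) and Ccdc39 (-0.58) passed as lower. The fibroblast genes Col1a1 (0.66) and Col1a2 (0.45) passed as higher, and the endothelial gene Kdr (-0.57) as lower. Mast cells and basophils can express Areg. Their 6 genes summed to between 4.54 and 8.85 CPM over the 5 groups and to 4.54 CPM in WT_VILI, with Mcpt4 and Tpsb2 under 0.5 CPM there, and 1 of the 6 was lower in WT_VILI. For 6 genes of T cells and innate lymphoid cells the sums lay between 88.8 and 108.2 CPM, with 2 of the 6 higher in WT_VILI. The part of cell content in the ligand and receptor changes was not tested. In whole lung RNA, a different number of cells and a different amount of RNA per cell cannot be told apart.

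Between genes, levels were set side by side only per kilobase of the longest coding transcript in GENCODE M21, and only for members with 1 such length. Among the ligands, Areg transcripts (1215 bases) stood at 2.55 CPM per kb in WT_noVILI and Hbegf transcripts (2375 bases) at 20.7 CPM per kb. In WT_VILI the values were 55.5 CPM per kb for Areg and 48.7 CPM per kb for Hbegf, and in KO_VILIhigh 134 and 138 CPM per kb. Btc was at 2.76 CPM per kb in WT_noVILI and 2.33 CPM per kb in WT_VILI, and Ereg at 0.135 and 1.06 CPM per kb. In WT_noVILI the order was Hbegf, Btc, Areg, Ereg. In WT_VILI it was Areg, Hbegf, Btc, Ereg. Without values per library it cannot be said which neighbours in these orders differ beyond their spread. Erbb2 was at 11.5 and Erbb3 at 8.42 CPM per kb in WT_noVILI, and at 8.04 and 8.88 CPM per kb in WT_VILI. Tgfa and Egfr have annotated coding transcripts from 410 to 4527 and from 463 to 10208 bases, so they were not placed in an order.

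The genes of 4 ligands, Epgn, Ereg, Areg and Btc, lie in a row on mouse chromosome 5, beside a group of CXC chemokine genes. In the RefSeq gene order of GRCm38.p6 the protein-coding genes of this stretch run Cxcl5, Ppbp, Pf4, Cxcl3, Cxcl15, Cxcl1, Cxcl2, Mthfd2l, Epgn, Ereg, Areg, Btc and Parm1. The other members lie on chromosomes 6 (Tgfa), 10 (Erbb3), 11 (Egfr and Erbb2), 12 (Adam17) and 18 (Hbegf). Of these 13 genes, 6 were higher in the authors' edgeR table of WT_VILI against WT_noVILI, where 4.85% of all genes were: the members Ereg and Areg, already described, and Ppbp (1.88), Cxcl15 (0.40), Cxcl1 (3.21) and Cxcl2 (5.10). The stretch was chosen with results known, and the count is a description. Ereg and Areg are adjacent, and the genes on either side of the pair, Epgn and Btc, did not pass. Between the chemokines and the ligands, Mthfd2l, a mitochondrial folate enzyme gene, read 6.68 CPM in WT_noVILI against 9.77 CPM in WT_VILI (log2 difference 0.55, edgeR adjusted p = 0.33). Neutrophil-recruiting Cxcl1 stood at 1.64, 4.99, 15.2, 25.4 and 81.9 CPM in WT_noVILI, KO_noVILI, WT_VILI, KO_VILIlow and KO_VILIhigh, the same order of groups as Areg.

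**Figure D3:**
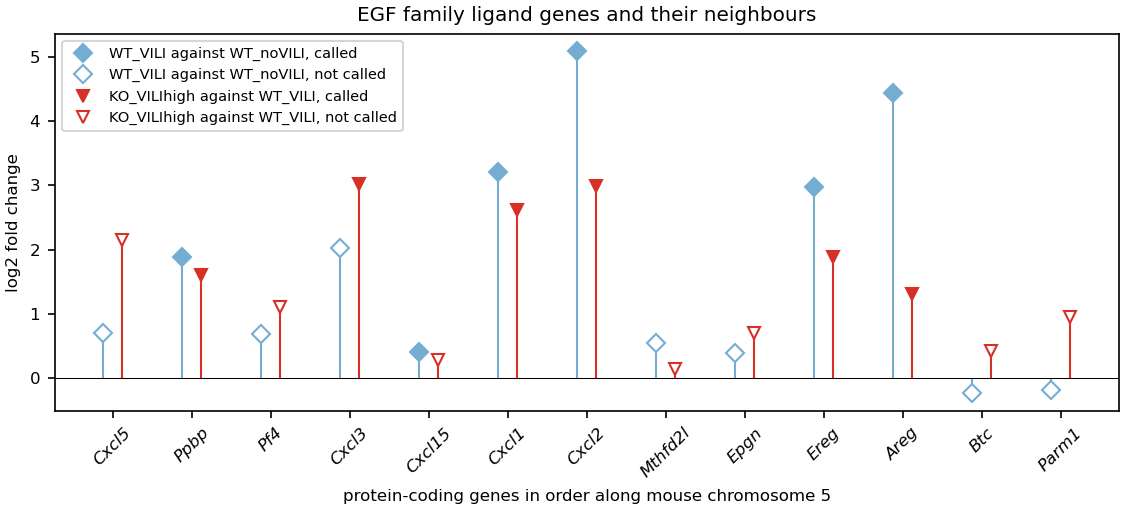
Deposited log2 fold changes of 13 protein-coding genes in their order along chromosome 5 (no distances drawn), for WT_VILI against WT_noVILI and KO_VILIhigh against WT_VILI; filled symbols passed an adjusted p of 0.05. Ereg and Areg are filled in both comparisons, and Epgn and Btc in neither.

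Promoter windows of 300 bases (250 before to 50 after the annotated start) were matched in RefSeq, build GRCm38.p6, for 7 of the 10 members: Areg, Tgfa, Btc, Epgn, Egfr, Erbb2 and Adam17. The windows of the ligand with the largest rise, of its neighbours Epgn and Btc that did not pass, and of the receptor that rose are shown 5′ to 3′ on the gene's strand, with motif matches in capitals. They are chr5:91139349-91139648 on the + strand for Areg, chr5:91027267-91027566 on the + strand for Epgn, chr5:91402945-91403244 on the - strand for Btc and chr11:16751953-16752252 on the + strand for Egfr.
Areg: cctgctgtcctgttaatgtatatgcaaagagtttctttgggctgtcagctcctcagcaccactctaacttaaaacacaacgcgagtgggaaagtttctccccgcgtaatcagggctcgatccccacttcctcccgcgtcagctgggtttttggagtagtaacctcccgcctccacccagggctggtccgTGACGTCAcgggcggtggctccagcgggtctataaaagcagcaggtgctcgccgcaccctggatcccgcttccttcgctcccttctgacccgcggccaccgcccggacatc
Epgn: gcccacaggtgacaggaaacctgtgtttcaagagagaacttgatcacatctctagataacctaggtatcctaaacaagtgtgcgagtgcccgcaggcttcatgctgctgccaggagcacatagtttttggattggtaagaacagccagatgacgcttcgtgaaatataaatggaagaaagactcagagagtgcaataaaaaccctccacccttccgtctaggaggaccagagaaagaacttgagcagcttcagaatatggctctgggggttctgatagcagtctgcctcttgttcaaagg
Btc: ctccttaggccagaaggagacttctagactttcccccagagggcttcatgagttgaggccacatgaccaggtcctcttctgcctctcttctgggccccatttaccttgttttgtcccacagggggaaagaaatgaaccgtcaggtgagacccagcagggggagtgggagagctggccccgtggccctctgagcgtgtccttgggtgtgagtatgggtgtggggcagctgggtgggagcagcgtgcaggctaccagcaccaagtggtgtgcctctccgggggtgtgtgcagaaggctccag
Egfr: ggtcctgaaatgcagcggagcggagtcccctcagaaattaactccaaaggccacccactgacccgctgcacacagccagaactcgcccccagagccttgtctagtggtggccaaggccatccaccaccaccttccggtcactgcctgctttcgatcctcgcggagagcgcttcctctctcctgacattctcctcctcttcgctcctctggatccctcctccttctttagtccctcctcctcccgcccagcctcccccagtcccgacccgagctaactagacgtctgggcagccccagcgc

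The motifs searched, on both strands, were AP-1 (TGACTCA), the cAMP response element or CRE (TGACGTCA), EGR (GCGNGGGCG), TEAD (GGAATG), the CArG box and the NF-kB motif. The capitals in the Areg window are a CRE whose first base lies at position -61 from the start. A CRE is in 1.79% of all 32851 windows of this length. The Erbb2 window holds 1 TEAD match, as do 14.7% of all windows. The windows of Tgfa, Btc, Epgn, Egfr and Adam17 held no match to the 6 motifs. AP-1 is found in 5.20%, EGR in 5.55%, CArG in 1.63% and NF-kB in 4.51% of all windows. The motifs do not overlap in these windows, and a match describes the letters only.

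The unventilated comparison shows how the members stood in knockout lungs at rest. None of the 10 passed in the authors' edgeR table of KO_noVILI against WT_noVILI, where 3.36% of all genes did, and 2 had an unadjusted p below 0.05. Those 2 were Areg, at 6.08 CPM in KO_noVILI against 3.10 CPM (log2 difference 0.98, interval 0.20 to 1.76, edgeR adjusted p = 0.2), and Hbegf, at 36.9 against 49.1 CPM (log2 difference -0.41, interval -0.76 to -0.06, edgeR adjusted p = 0.27). Of the others with a usable interval, the log2 differences ran from -0.32 for Btc to 0.23 for Adam17. Ereg and Epgn were under 1 CPM in both groups, so no difference was detectable for them. Some cell type markers did pass here. Lower were the cardiac muscle genes Myh6 (-1.38), Tnnt2 (-1.24), Tnni3 (-1.39) and Ryr2 (-1.43), and also Scgb3a2 (-0.68), Ccdc39 (-1.32) and Dcn (-0.77). Higher were Marco (1.62), Ngp (2.93) and Gata3 (0.76). The part of cell content in the Areg and Hbegf values at rest was not tested.

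Knockout lungs with injury close to wild type were not separated from ventilated wild type lungs by any member. None of the 10 passed in the authors' edgeR table of KO_VILIlow against WT_VILI, where 0.973% of all genes did, and 2 had an unadjusted p below 0.05. Areg was at 86.8 CPM in KO_VILIlow and 67.5 CPM in WT_VILI (log2 difference 0.40, interval 0.03 to 0.77, edgeR adjusted p = 0.777). Ereg was at 7.12 and 4.38 CPM (log2 difference 1.05, interval 0.31 to 1.79, edgeR adjusted p = 0.269), and the WT_VILI level of Ereg was 3.43 CPM in the table of this comparison itself. Hbegf was at 160.4 and 115.7 CPM (log2 difference 0.48, interval -0.07 to 1.04). All 3 ligands that had risen in wild type thus stood higher in KO_VILIlow, by amounts that did not pass. Some cell type markers did pass as higher here. They were the cardiac muscle genes Myh6 (1.29), Tnnt2 (1.69), Tnni3 (1.19) and Actn2 (1.81), the macrophage gene Chi3l3 (1.36) and the neutrophil gene Ngp (0.84). The other genes of the macrophage and neutrophil lists did not pass, nor did the cardiac gene Ryr2 (1.02). The part of these cells in the ligand values of this comparison was not tested.

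Knockout lungs with more injury had more RNA of Areg, Ereg and Hbegf than ventilated wild type lungs. In the authors' edgeR table of KO_VILIhigh against WT_VILI, 3 of 10 members were higher and none was lower. Of all genes, 1.56% passed in either direction and 1.13% as higher, and 2.4% passed among the 13724 genes whose mean log2 CPM reached 1. Hbegf stood at 327.6 CPM in KO_VILIhigh, a log2 fold change of 1.52 (SE 0.25, edgeR adjusted p = 2.60e-07). Areg stood at 162 CPM, a log2 fold change of 1.31 (SE 0.21, edgeR adjusted p = 1.98e-07). Ereg stood at 13.2 CPM, a log2 fold change of 1.89 (SE 0.55), and its edgeR adjusted p of 0.0408 was close to the threshold. This table shares its WT_VILI libraries with the KO_VILIlow table and the wild type ventilation table, so the folds of the 3 tables are not independent. Summed neutrophil and general epithelial markers were also highest in KO_VILIhigh, as given above, with 2 of 6 and 3 of 5 genes higher. Of the macrophage genes 2 of 6 were higher too, and of the red blood cell genes 2 of 3, but both sums were lowest in WT_VILI. Macrophage genes summed to 402.5, 473.3, 256.6, 424.9 and 411.7 CPM in WT_noVILI, KO_noVILI, WT_VILI, KO_VILIlow and KO_VILIhigh. Red blood cell genes summed to 1425, 2639, 374.6, 1338 and 1196 CPM in the same order. Hbb-bs (-1.92), Alas2 (-2.07) and Chi3l3 (-1.20) were lower in WT_VILI against WT_noVILI (edgeR adjusted p = 0.00474, 0.00521 and 7.92e-14). The part of these cells in the ligand values was not tested.

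The receptors and the protease did not pass in the high-injury comparison. Egfr stood at 58.3 CPM in KO_VILIhigh, against 55.9 CPM in KO_VILIlow and 49.7 CPM in WT_VILI. Its log2 difference between KO_VILIhigh and WT_VILI was 0.29, with an interval of -0.18 to 0.76. Erbb2 stood at 36.1, 41.9 and 40.3 CPM in the same order (difference -0.09, interval -0.57 to 0.38), Erbb3 at 46.6, 49.6 and 53.4 CPM (difference -0.15, interval -0.63 to 0.33) and Adam17 at 95.2, 84.1 and 93.5 CPM (difference 0.05, interval -0.36 to 0.46). Tgfa stood at 39.5, 38.5 and 37.7 CPM (difference 0.14, interval -0.32 to 0.61) and Btc at 7.98, 6.60 and 6.71 CPM (difference 0.43, interval -0.36 to 1.22). For Btc, whose level is low, the interval is wide enough to hold a change of more than 1 log2 unit.

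High and low injury were set against each other by subtracting the 2 deposited log2 fold changes, in an approximate test in which the WT_VILI libraries cancel but are still counted as error. None of 9 members passed in this test, against 0.165% of 12696 genes, and 2 had an unadjusted p below 0.05. Those were Areg, higher in KO_VILIhigh by 0.91 on the log2 scale (interval 0.36 to 1.47, approximate adjusted p = 0.322), and Hbegf, higher by 1.04 (interval 0.30 to 1.77, approximate adjusted p = 0.833). The test called few genes of any kind.

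The response to ventilation within the knockout was derived by adding and subtracting the deposited fold changes, with the same kind of approximate test. Both wild type groups cancel in these values but are still counted as error. The test is therefore conservative, and its calls and SE are not on the same footing as those of the wild type table. Areg, Hbegf and Egfr rose in knockout lungs of either injury group. In KO_VILIlow against KO_noVILI, 3 of 8 members with enough counts passed, all higher, against 3.53% of 12399 genes in either direction and 2.22% as higher. In KO_VILIhigh against KO_noVILI, 3 of 8 passed, all higher, against 3.88% of 12509 genes in either direction and 2.45% as higher. Areg rose by 3.86 (SE 0.50, approximate adjusted p = 3.86e-12) in the low-injury and 4.77 (SE 0.51, approximate adjusted p = 2.20e-18) in the high-injury knockouts. Hbegf rose by 2.13 (SE 0.38, approximate adjusted p = 3.00e-06) and 3.16 (SE 0.35, approximate adjusted p = 9.70e-17), and Egfr by 1.32 (SE 0.30, approximate adjusted p = 0.000775) and 1.38 (SE 0.34, approximate adjusted p = 0.00225). Erbb2 was at -0.58 (interval -1.18 to 0.02, approximate adjusted p = 0.528) and -0.80 (interval -1.42 to -0.19, approximate adjusted p = 0.166). Its levels were 57.8 and 65.0 CPM in the unventilated groups and 36.1 to 41.9 CPM in the ventilated groups. Ereg and Epgn were left out of these tests because their mean in the unventilated table was too low. Markers moved in the same contrasts. In KO_VILIlow against KO_noVILI, 4 of 4 cardiac muscle genes tested, 3 of 5 general epithelial genes and 3 of 5 neutrophil genes passed as higher. The ciliated cell gene Foxj1 (-1.87), the macrophage gene Marco (-1.83) and Gata3 (-1.45), of the T cell and innate lymphoid cell list, passed as lower. In KO_VILIhigh against KO_noVILI, 3 of 5 general epithelial and 4 of 5 neutrophil genes passed as higher, while the 4 cardiac muscle genes were at 1.27 to 1.46 without passing (approximate adjusted p = 0.249 to 0.364). Foxj1 (-1.43) passed as lower there too. The summed level of the cardiac list in KO_noVILI, 199.2 CPM, was the lowest of the 5 groups, and those of KO_VILIlow and KO_VILIhigh came to 842.4 and 532.0 CPM. The part of these markers in the values of Areg, Hbegf and Egfr was not tested.

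**Figure D4:**
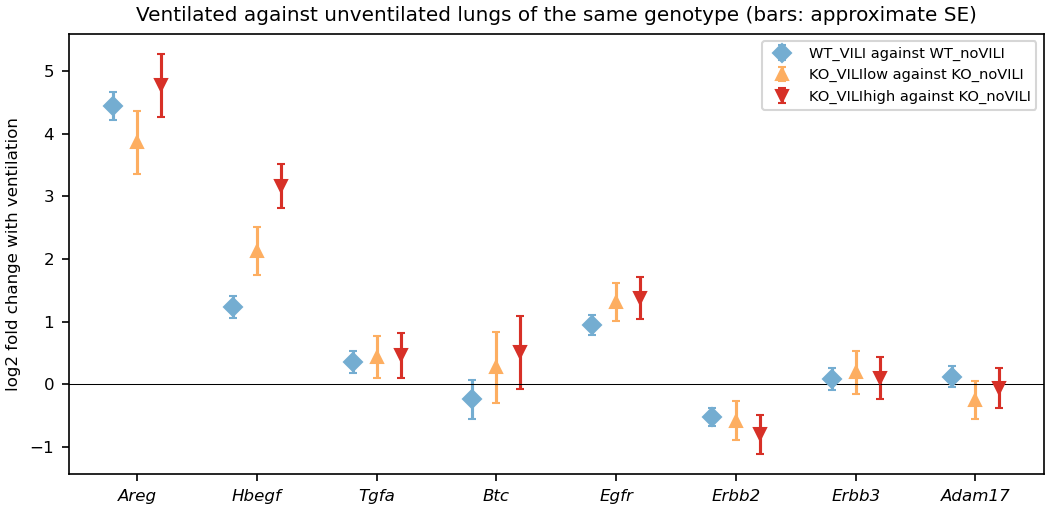
Log2 fold change with ventilation in wild type, low-injury and high-injury knockout lungs for the 8 members that could be tested in all 3, with approximate SE as bars. The knockout bars also count as error the wild type groups that cancel. Areg is near 4 or above in each, Hbegf goes from 1.24 to 2.13 to 3.16, and Egfr lies between 0.94 and 1.38.

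Whether the genotype difference itself depended on ventilation was tested in the same approximate way, with 8 members in each test. For the high-injury knockouts 1 of the 8 passed, against 1.57% of 12782 genes in either direction and 1.19% as higher. It was Hbegf: the knockout difference was -0.41 without ventilation and 1.52 with it, a change of 1.92 (SE 0.30, approximate adjusted p = 1.82e-07). For Areg the change was 0.33 (interval -0.56 to 1.21). For the low-injury knockouts none passed, against 1.17% of 12661 genes, and Hbegf alone had an unadjusted p below 0.05, at 0.89 (interval 0.23 to 1.54, approximate adjusted p = 0.342). No group cancels in these tests. Sex and ventilation cannot be told apart in them either, because Xist was high in both unventilated groups and low in every ventilated group. In the high-injury test 3 of 5 general epithelial and 4 of 5 cardiac muscle genes also passed as higher, and none of 5 neutrophil genes did. The part of these cells in the Hbegf value was not tested.

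Other genes of the pathway were read from 7 lists with 74 genes, of which 73 were in the tables. By the authors' edgeR tables, 17 of the 73 were higher and 1 was lower in WT_VILI against WT_noVILI, where 9.09% of all genes and 13.7% of those whose mean log2 CPM reached 1 passed. In KO_noVILI against WT_noVILI 4 were higher and 5 lower, beside 3.36% of all genes. In KO_VILIlow against WT_VILI 1 was higher, beside 0.973% of all genes. In KO_VILIhigh against WT_VILI 12 were higher, beside 1.56% of all genes and 2.4% of those whose mean log2 CPM reached 1. The lists were chosen with results known, and the counts of each list below are descriptions to be read beside these shares. The median log2 fold changes of the 73 in that order were 0.13, 0.03, 0.02 and 0.08, beside -0.02, 0.01, -0.01 and 0 over all genes whose mean log2 CPM reached 1. None of the 5 other EGF-family ligands passed in a deposited table. Nrg1, encoding neuregulin-1, a ligand of ErbB3 and ErbB4, stood at 12.8 and 10.6 CPM in WT_noVILI and KO_noVILI, and at 20.2, 15.8 and 15.2 CPM in WT_VILI, KO_VILIlow and KO_VILIhigh (wild type ventilation 0.66, edgeR adjusted p = 0.101). Egf itself was low, at 1.12 CPM in WT_noVILI and 2.95 CPM in WT_VILI (1.40, edgeR adjusted p = 0.0852). Nrg2 and Nrg4 stood between 3.62 and 8.99 CPM in every group, Nrg3 was at the floor in all 5, and the receptor gene Erbb4 was at 0.375 to 1.28 CPM.

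Several genes of the shedding machinery other than Adam17 were higher after ventilation. Of 9 genes, 4 were higher in WT_VILI against WT_noVILI and none was lower, with a median of 0.42, beside 13.7% of genes at that abundance called in either direction. Adam8, a metalloprotease of leukocytes, was at 1.46 (edgeR adjusted p = 3.74e-05), Timp3, which encodes an inhibitor of Adam17, at 0.58 (edgeR adjusted p = 0.000197), Rhbdf2, encoding the iRhom2 protein that carries Adam17 to the cell surface, at 0.58 (edgeR adjusted p = 0.00689), and Adam15 at 0.42 (edgeR adjusted p = 0.0378). Rhbdf2 and Adam15 were also higher in KO_noVILI against WT_noVILI, at 0.46 and 0.51 (edgeR adjusted p = 0.0472 and 0.019). Adam9, Adam10, Adam12, Adam19 and Rhbdf1 did not pass after ventilation, with log2 differences of 0.16, -0.21, 0.65, 0.04 and 0.05. None of the 9 passed in either ventilated knockout table. The 4 that passed in wild type thus include an inhibitor beside proteases and a carrier.

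Of 24 adaptor and kinase genes measured of 25 listed, 2 were higher and 1 was lower after ventilation of wild type lungs, a share close to the 13.7% of genes called at that abundance. Stat3, a transcription factor gene, was at 0.43 (edgeR adjusted p = 0.0176), the adaptor gene Gab2 at 0.50 (edgeR adjusted p = 0.024) and Grb7, an adaptor that binds ErbB2, at -0.92 (edgeR adjusted p = 6.82e-05). The kinase gene Braf was lower in KO_noVILI against WT_noVILI, at -0.48 (edgeR adjusted p = 0.0311). None of the 24 passed in the ventilated knockout tables.

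Receptor inhibitors were led by Errfi1, which encodes Mig-6, a protein that binds and blocks the EGF receptor kinase. It was at 2.03 in WT_VILI against WT_noVILI (edgeR adjusted p = 4.98e-43), and at 2.57 and 2.96 in the low-injury and high-injury knockouts against KO_noVILI (approximate adjusted p = 1.49e-16 and 1.19e-19). Of the 12 genes of that list 3 were higher and none was lower in wild type, the others being the ubiquitin ligase gene Cblb (0.57, edgeR adjusted p = 0.000927) and the phosphatase gene Ptpn1 (0.52, edgeR adjusted p = 0.00394). None of the 12 passed in either ventilated knockout table, where Errfi1 was at 0.18 and 0.57. In the approximate test of whether the genotype difference depended on ventilation, Errfi1 passed for the high-injury knockouts (0.93, SE 0.27, approximate adjusted p = 0.0364). For the low-injury knockouts it did not (0.54, SE 0.25, approximate adjusted p = 0.716).

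Feedback genes of the MAP kinase cascade and transcripts known to respond to EGF receptor signalling gave all 12 calls of the high-injury comparison. Of 9 feedback genes 4 were higher in KO_VILIhigh against WT_VILI (median 0.74), 1 in KO_VILIlow against WT_VILI and 2 in WT_VILI against WT_noVILI (median 0.37), where 13.7% of genes at that abundance were called. In KO_noVILI against WT_noVILI 1 of the 9 was lower: Dusp1, a phosphatase gene for MAP kinases, was at -1.07 (edgeR adjusted p = 2.51e-05). Dusp5, a nuclear ERK phosphatase gene, was at 2.07 in KO_VILIhigh (edgeR adjusted p = 3.82e-09), 1.01 in KO_VILIlow (edgeR adjusted p = 0.0439) and 0.32 in wild type after ventilation (edgeR adjusted p = 0.783). Dusp6, Spry2 and Dusp1 were the other 3, at 0.96, 0.82 and 0.90 (edgeR adjusted p = 0.00445, 0.00792 and 0.0092). In wild type the 2 were the Sprouty genes Spry4 (1.12, edgeR adjusted p = 4.25e-07) and Spry1 (0.56, edgeR adjusted p = 0.000719), and Dusp6 was at 0.01. Of 13 responding transcripts 6 were higher in wild type after ventilation and 8 in KO_VILIhigh against WT_VILI, with medians of 0.57 and 1.35. Many stimuli besides EGF receptor ligands raise these transcripts.

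In wild type lungs the responding transcripts with the smallest p were Atf3 (3.08), Myc (2.05), Phlda1 (1.62) and Fosl1 (1.63), with edgeR adjusted p of 1.01e-36, 1.43e-23, 6.73e-18 and 3.07e-07. In KO_VILIhigh against WT_VILI they were Egr1 (2.13), Fos (1.93), Ier2 (1.67) and Fosl1 (2.15), with edgeR adjusted p of 3.30e-17, 1.14e-13, 2.30e-13 and 1.11e-11. In KO_noVILI against WT_noVILI 3 of the 13 were lower and 2 higher: Egr1 (-2.14), Fos (-2.02) and Ier2 (-0.62) against Ccnd1 (0.67) and Phlda1 (0.69), with edgeR adjusted p of 3.28e-05, 0.00121, 0.0395, 0.000396 and 0.0129.

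**Figure D5:**
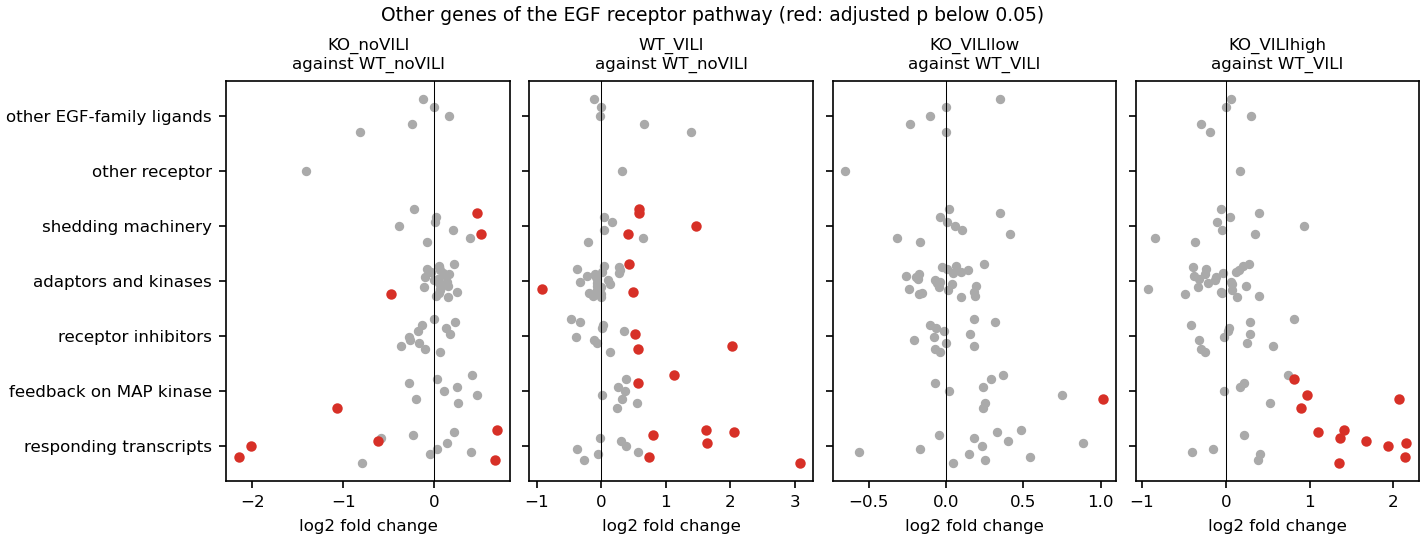
Deposited log2 fold changes of the 73 other pathway genes by list, 1 point per gene and 1 panel per table with its own axis range; red marks an adjusted p below 0.05. Red points number 9, 18, 1 and 12 from left to right, and those of the fourth panel lie in the MAP kinase feedback and responding transcript lists.

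Genes with the most similar fold changes over the 4 tables were sought for Areg, Hbegf and Egfr among 12688 genes whose mean log2 CPM reached 1 in each, as the root mean square difference of the 4 log2 fold changes. Predicted genes, with Gm, Rik or LOC names, were left out. Areg was closest to Sfn (0.30), which encodes the epithelial 14-3-3 sigma protein, followed by the transcription factor gene Nfil3 (0.59) and the neutrophil collagenase gene Mmp8 (0.67). Hbegf was closest to Clec4e (0.16), a receptor gene of myeloid cells, Rgs16 (0.19) and Nlrp3 (0.19), an inflammasome sensor gene. Egfr was closest to Tpcn2 (0.06), Fam83h (0.08) and Nudt6 (0.10). The 4 tables share libraries, so this likeness describes the tables and has no test.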

How the data were processed

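Whole lung RNA of 5 groups was sequenced, and 4 comparison tables deposited by the authors, each with 21590 genes, were read. The authors used Bowtie 1.1.2, mm9, R 3.0.1 and edgeR, per the submitters' processing notes; count method, filters and test settings are not given in the sources used here. The authors' deposited log2 fold changes and log2 mean CPM values were taken as edgeR writes them, with the deposited p-value and adjusted p-value of each gene. Depth per library is unknown.

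A gene counted as called below an adjusted p of 0.05. The level of each group was solved from the fold change and the mean CPM, treating both groups as equal in size. Rebuilt reference levels of both ventilated knockout tables had a median absolute log2 difference from WT_VILI of 0.0491 and 0.045 over 10562 genes, against 0.205 and 0.203 from WT_noVILI, so WT_VILI was read as their reference. For 5 derived contrasts, fold changes were added or subtracted, and each SE was the fold change over the normal quantile of its p. Benjamini-Hochberg adjustment ran over the genes whose mean log2 CPM reached 1 in each table used and whose SE could be computed. Genes without such an SE, among them those with a fold change of 0 in a table used, were left out of these tests. The shares of genes called in the derived contrasts leave them out too.

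The members, lists and tests were chosen with earlier results of these data known. The text names all 10 members, Cldn4, all genes of the ligand, receptor and shedding lists, up to 4 called genes of each other pathway list per comparison and the 3 genes most like Areg, Hbegf and Egfr; Xist, Mcpt4, Tpsb2, the neighbours on chromosome 5 and those of Erbb2 were named outside this rule, after their values were seen, as were Ier2 in the unventilated knockout, Dusp5 and Dusp6 in wild type, and Errfi1 in the ventilated knockout tables. Other cell type markers named singly were also chosen after their values were seen. Alternatives were another adjustment, gene filter, threshold, centring and the removal of X and Y genes. Protein sequences were not used here. Gene order, promoters and transcript lengths come from GRCm38 annotations, another build than mm9, so coordinates are given for the RefSeq promoter windows only. Computation ran in Python 3.11.15 with scipy 1.17.1, pandas 2.3.3 and numpy 2.4.6, and figures were drawn with matplotlib 3.10.9.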

Additional observations from a re-analysis of the deposited data

Results flagged for a closer look

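Hbegf was singled out because its genotype difference differed with ventilation: the log2 difference between high-injury knockout and wild type was higher by 1.92 with ventilation than without (SE 0.30, approximate adjusted p = 1.82e-07 over 12782 genes). The difference was -0.41 between the unventilated groups and 1.52 between the ventilated groups. Hbegf was not alone in this: of 68 other pathway genes in the same test 9 also passed, all higher, beside 1.57% of the 12782 genes. Among them were Egr1 (4.28), Fos (3.95), Ier2 (2.29) and Dusp1 (1.97). Rebuilt levels were 49.1 and 36.9 CPM in WT_noVILI and KO_noVILI, and 115.7 and 327.6 CPM in WT_VILI and KO_VILIhigh. KO_VILIhigh was formed by the injury of the animals, so genotype and injury cannot be told apart there. Sex and ventilation cannot be told apart in this value either.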

How the results depend on the processing

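Counts of called members stayed within 1.5 times in all 9 comparisons under Bonferroni adjustment, another gene filter, centring, a threshold of 0.01 and, for the deposited tables, removal of X and Y genes. In 4 of the 9 the count was 0 under each of these. No called value changed sign. Under Bonferroni adjustment 4 calls were lost: Erbb2 in WT_VILI against WT_noVILI and Ereg in KO_VILIhigh against WT_VILI (adjusted p = 1 for each by the authors' edgeR p), and Egfr in the low-injury and high-injury knockouts against KO_noVILI (approximate adjusted p = 0.133 and 0.515). Ereg in KO_VILIhigh against WT_VILI was also lost at a threshold of 0.01 (deposited edgeR adjusted p = 0.0408). The medians used for centring the deposited tables ran from -0.02 to 0.01 on the log2 scale. The WT_VILI level of Ereg was 4.38 CPM from one table and 3.43 and 3.56 CPM from the others, that of Btc 6.71 against 5.80 and 5.94 CPM, and that of Epgn 0.666 against 0.591 and 0.592 CPM; Epgn in WT_noVILI was 0.509 or 0.364 CPM. No paired analysis was possible because the tables hold no values per library, and no replicate could be left out for the same reason.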

Other observations

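Erbb2 lies on mouse chromosome 11 with the genes Tcap, Pnmt and Pgap3 on one side and Mien1, Grb7 and Ikzf3 on the other. In the authors' edgeR table of WT_VILI against WT_noVILI, Erbb2 and Grb7 were lower, at -0.52 and -0.92 (adjusted p = 0.00744 and 6.82e-05). Mien1, which lies between them, was at -0.07 (adjusted p = 1), with rebuilt levels of 25.9 CPM in WT_noVILI and 24.6 CPM in WT_VILI. None of the other 4 passed in that edgeR table: Pgap3 was at 0.31 (adjusted p = 0.625), Pnmt at -0.26 (adjusted p = 1), Ikzf3 at -0.30 (adjusted p = 0.545) and Tcap, a muscle gene, at -0.55 (adjusted p = 0.288), a difference as large as that of Erbb2. Grb7 stood at 30.6 and 31.4 CPM in WT_noVILI and KO_noVILI, and at 16.2, 12.5 and 8.01 CPM in WT_VILI, KO_VILIlow and KO_VILIhigh. In the knockout, Grb7 fell by 1.21 in the low-injury and 1.90 in the high-injury lungs against KO_noVILI (approximate adjusted p = 0.0303 and 0.000179).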
